A study of Bos taurus with 6 samples.

Results

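Actin cytoskeleton genes outside the sarcomere, the repeating contractile unit of the muscle fiber, were followed in primary bovine myoblasts treated with resveratrol (RSV). A list of 56 genes was used that code for cytoplasmic actins, the proteins that build, cut, cap, crosslink and anchor actin filaments, non-muscle myosin, and signalling proteins that steer them. Of these, 34 could be paired with an mRNA of the deposited table, which lists 26332 mRNAs under Ensembl identifiers without symbols. The pairing rests on sheets published with the study, which name only genes that the authors had called differentially expressed (DE), so each of the 34 was chosen through the comparison of RSV with control. Their difference between the groups is therefore described here with its size and error and no test. The other 22 listed genes (ACTB, ACTG1, ARPC1A, ARPC5, TLN1, ZYX, MYL9, CNN3, TPM4, CALD1, DIAPH1, ROCK1, ROCK2, CDC42, RAC1, LIMK1, PXN, WDR1, MYO1C, SPTAN1, ENAH and VASP) were not analysed here. The sheets run in the order of the authors' P-values, and the last 2 of the 34 genes in that order are TAGLN and TAGLN2. No gene just outside the threshold has a name. That a listed gene could not be paired does not mean that the authors had not called it.

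Primary myoblasts are muscle precursor cells, and those used here came from the longissimus dorsi muscle of fetal beef cattle. Cultures in differentiation medium received 20 μM RSV, a plant polyphenol, dissolved in DMSO (RSV group, 3 samples), or DMSO alone (control group, called DMSO here, 3 samples), and the series description gives 4 days of treatment. The labels name no engineered allele in either group. Primary cultures from digested muscle can hold cells other than myoblasts. The authors state that each group had 3 independent experiments for collecting the cells. The breed, and which fetus gave which culture, are not given in the sources used here. The p-values behind any call then measure the spread between these samples alone.

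Actin monomers assemble into filaments that the Arp2/3 complex branches, capping proteins stop, cofilin and gelsolin sever, and crosslinkers such as filamins and alpha-actinins bind into networks and stress fibers. Non-muscle myosin II pulls on these filaments, and vinculin and its partners tie them to integrins at focal adhesions. Signals from the membrane switch this assembly on, and myoblasts remodel the network when they migrate, align and fuse.

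The deposited table gives 1 mean per group and no column for a single sample. Each mean averages the reads of 3 libraries after scaling by 1 size factor per library, and the digits of the means were enough to recover these counts for 20409 of 20459 mRNAs with reads (99.76%). All 34 genes were recovered, 26 from the digits alone and 8 with the help of relative values in the sheets. The recovered libraries are called RSV A, B and C and DMSO A, B and C, with letters given by falling size factor only, and values are normalized reads, the recovered reads divided by the size factor. The recovered reads sum to between 17884357 and 19868085 per library, and the 34 genes had between 317 and 94696 reads in any library, fewest in PAK1.

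Of the 34 genes, 32 were lower and 2 were higher in the RSV group. In all 32 the highest RSV library lay below the lowest DMSO library, a pattern held by 26.9% of the 14979 mRNAs whose mean reached 10 normalized reads, and in FLNC and SSH1 the lowest RSV library lay above the highest DMSO library, as in 26.8% of mRNAs. The median log2 fold change (log2FC, RSV against DMSO, estimated with limma voom over all 14979 mRNAs) was -0.57, against 0.002 over all mRNAs and -0.47 over the 2659 mRNAs called lower at an adjusted P-value under 0.05. That test called 17.8% of all mRNAs lower and 16.6% higher, and it called 32 of the 34 genes lower and 2 higher, which the choice of the genes had already fixed. The log2FC was below -1 for MYH10, CNN2 and CNN1, between -1 and -0.5 for 16 genes, and between -0.5 and 0 for 13. In these bulk samples, fewer cells of a type and less RNA per cell cannot be told apart.

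**Figure D1:**
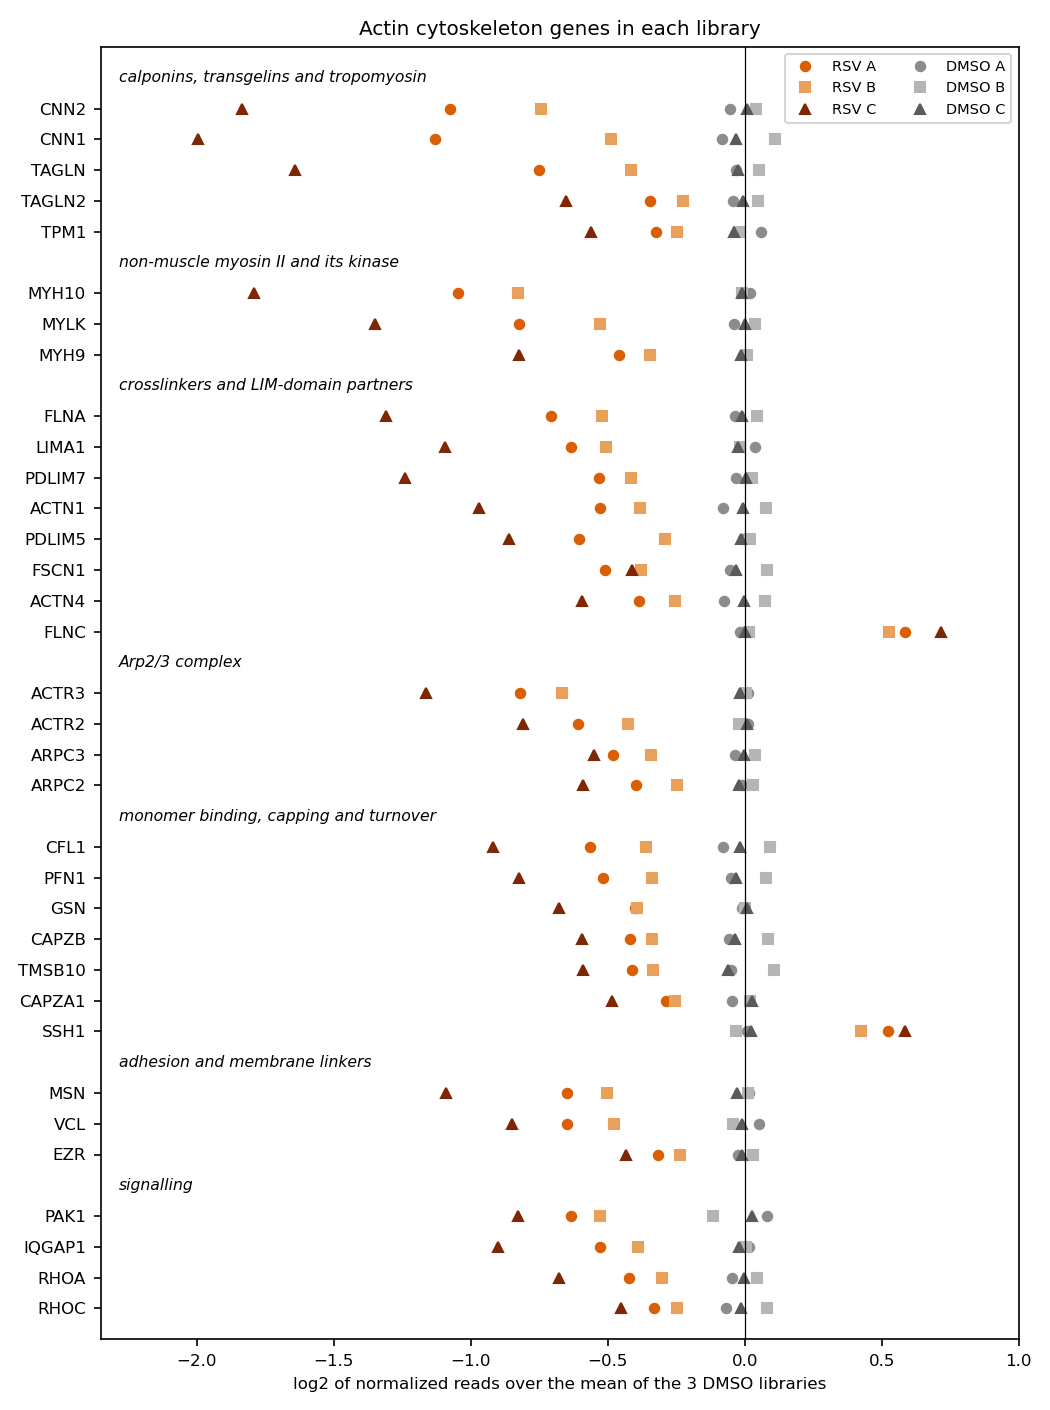
Normalized reads of the 34 actin cytoskeleton genes in each of the 6 libraries, as log2 of the value over the mean of the 3 DMSO libraries (x axis), 1 gene per line, grouped by role (y axis). Orange to brown symbols are RSV A, B and C, and grey symbols are DMSO A, B and C. In 32 genes all RSV symbols lie left of all DMSO symbols, RSV C is farthest left in 31 of these, and FLNC and SSH1 lie to the right.

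Some of the widest differences were among the calponins and transgelins, actin-binding proteins best known from smooth muscle and from stress fibers. CNN1, the basic calponin of smooth muscle, had 2387, 3719 and 1308 normalized reads in RSV A, B and C, against 4925, 5628 and 5099.9 in DMSO A, B and C. Its RSV libraries were thus far apart from each other, with B well above C, while the DMSO libraries stayed together. The RSV mean was 47.4% of the DMSO mean, with a log2FC of -1.20 ± 0.308 (standard error). CNN2, the calponin found in many non-muscle cells, had 2170.2, 2733 and 1285 in RSV and 4412, 4708 and 4603 in DMSO, in the same library order, and a log2FC of -1.22 ± 0.228. TAGLN (transgelin, also called SM22-alpha), which binds along actin filaments, had 24681, 31155 and 13323 in RSV and 40700.4, 43064 and 40899 in DMSO. RSV C again stood far below RSV B, and the log2FC was -0.94 ± 0.258, or -0.58 without RSV C. TAGLN2, the relative found outside smooth muscle, showed a smaller difference, with 7701, 8379 and 6227 in RSV, 9503, 10121 and 9738 in DMSO and a log2FC of -0.41 ± 0.101. TPM1, a tropomyosin that lies along the filament and is used in both muscle and non-muscle isoforms, had 4464, 4712 and 3793 in RSV and 5826, 5509 and 5435 in DMSO, with a log2FC of -0.38 ± 0.082. The values count all TPM1 isoforms together, so those of the sarcomere and of stress fibers cannot be told apart.

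Non-muscle myosin II, the motor that pulls actin filaments together, was lower in both of its heavy chains that have a name. MYH10 (non-muscle myosin IIB, ENSBTAG00000021151) had 14410.3, 16782 and 8605 normalized reads in RSV A, B and C, against 30159.8, 29555 and 29570.1 in the DMSO libraries. The DMSO libraries differed by little, every RSV library lay well below them, and the RSV mean was 44.6% of the DMSO mean (log2FC -1.22 ± 0.206). MYH9 (non-muscle myosin IIA) went from 56578, 56903 and 56036 in DMSO to 41165, 44465 and 31893 in RSV, a log2FC of -0.54 ± 0.109. MYLK, the myosin light chain kinase that turns the motor on, had 2017, 2479.9 and 1402 in RSV and 3481, 3664 and 3572 in DMSO, with a log2FC of -0.90 ± 0.174. In each of the 3 genes RSV B was the highest and RSV C the lowest of the treated libraries.

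Among crosslinkers the 2 filamins went opposite ways. Filamins hold actin filaments together in networks, and filamin A (FLNA) is the form used by most cells while filamin C (FLNC) is the form of muscle. FLNA had 58575, 66717 and 38644 normalized reads in RSV A, B and C and 93457, 98683 and 94978 in DMSO, so the RSV mean was 57.1% of the DMSO mean (log2FC -0.84 ± 0.170). FLNC had 18943, 18179 and 20761 in RSV and 12472, 12772 and 12649 in DMSO, 152.8% of the DMSO mean (log2FC 0.61 ± 0.059). The treated library with the lowest FLNA value, C, had the highest FLNC value. The alpha-actinins, which bundle filaments in stress fibers, were both lower: ACTN1 had 19015, 21049 and 14027 in RSV and 26011, 28970.4 and 27359 in DMSO (log2FC -0.63 ± 0.133), and ACTN4 had 10815, 11869 and 9372 and 13425, 14893 and 14107 (log2FC -0.41 ± 0.087). FSCN1 (fascin), which bundles filaments in cell protrusions, was the one lower gene whose lowest treated value was not in RSV C. FSCN1 had 4746, 5199.8 and 5080.2 in the treated libraries against 6505, 7155 and 6605 in DMSO, and its log2FC was -0.43 ± 0.060.

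LIM-domain proteins that sit on stress fibers differed too. LIMA1 (EPLIN), which bundles filaments and slows their loss, had 6189.9, 6756 and 4502 in RSV and 9858, 9497 and 9438 in DMSO (log2FC -0.74 ± 0.132). PDLIM7 (enigma), a scaffold at actin bundles, had 12393, 13433 and 7588 in RSV and 17548, 18244 and 17969 in DMSO (log2FC -0.73 ± 0.185). RSV A and B were near each other for PDLIM7 and RSV C stood well below both, so the log2FC was -0.47 without RSV C. PDLIM5, a related scaffold bound to alpha-actinin, had 937, 1166 and 787 in RSV and 1419, 1445 and 1414 in DMSO (log2FC -0.58 ± 0.123).

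All 4 subunits of the Arp2/3 complex with a name, the machine that starts new branches on a filament, were lower. ACTR3, one of the actin-related proteins that form the start of the branch, had 3291, 3665 and 2597 normalized reads in RSV A, B and C and 5857, 5836 and 5749.7 in DMSO (log2FC -0.88 ± 0.111). ACTR2, its partner, had 6933, 7867 and 6027 in RSV and 10641, 10412 and 10631 in DMSO (log2FC -0.61 ± 0.089). The subunits that hold the pair in place differed less: ARPC2 had 8020.0, 8910.0 and 7020.2 against 10489.8, 10786 and 10419.7, and ARPC3 had 2126, 2339.6 and 2024 against 2892, 3045 and 2959.5. Their log2FC values were -0.41 ± 0.083 for ARPC2 and -0.46 ± 0.065 for ARPC3. The sum of the 4 subunits was 17667 to 22782 in RSV and 29760 to 30078 in DMSO.

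Of 7 genes for monomer binding, capping and turnover, 6 were lower and 1 was higher. CFL1 (cofilin-1), which severs aged filaments, had 9969.7, 11466 and 7787 in RSV and 13938, 15687 and 14557 in DMSO (log2FC -0.61 ± 0.127). PFN1 (profilin-1), which feeds monomers to growing ends, had 10325, 11706 and 8361 in RSV and 14284, 15595 and 14473 in DMSO (log2FC -0.56 ± 0.111). TMSB10 (thymosin beta 10), which holds monomers back, had 23898, 25207 and 21082 in RSV and 30693, 34177 and 30428 in DMSO (log2FC -0.44 ± 0.078). These genes are short and such genes often have near-identical copies, between which the authors' counting may have split reads. GSN (gelsolin), which severs and caps filaments, had 18072, 18166 and 14908 in RSV and 23706, 23835 and 23976 in DMSO (log2FC -0.49 ± 0.078). RSV A and B were almost level for GSN, and RSV C alone stood lower among the treated libraries. The subunits of the capping protein that closes the growing end had a log2FC of -0.45 ± 0.076 (CAPZB, 4049, 4282 and 3583 against 5207, 5739 and 5287) and -0.34 ± 0.070 (CAPZA1, 3738, 3822 and 3256 against 4413, 4619.6 and 4639.5). SSH1 (slingshot-1), the phosphatase that switches cofilin on, was the gene of this group that was higher, with 569.9, 533 and 596 normalized reads in RSV and 399.5, 388 and 403 in DMSO, 142.7% of the DMSO mean (log2FC 0.51 ± 0.076). Cofilin and its activating phosphatase therefore differed in opposite directions.

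Genes that tie filaments to the membrane were lower. VCL (vinculin), which links integrin adhesions and cell junctions to actin, had 6309, 7121 and 5500.4 in RSV and 10265, 9607 and 9822 in DMSO (log2FC -0.66 ± 0.089). MSN (moesin), which links cortical actin to membrane proteins, had 4083, 4517 and 3007 in RSV and 6471, 6453 and 6281 in DMSO (log2FC -0.75 ± 0.131). Its relative EZR (ezrin) had 13271, 14038 and 12255 in RSV and 16259, 16908 and 16449 in DMSO, and its log2FC of -0.33 ± 0.060 was the one nearest 0 among the 34 genes.

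Among signals that steer the network, RHOA, the GTPase that drives stress fibers and contraction, had 3716, 4042 and 3114 normalized reads in RSV and 4832, 5139.6 and 4981 in DMSO (log2FC -0.47 ± 0.091). RHOC, a close relative linked to cell motility, had 2921, 3093 and 2688 in RSV and 3498, 3882 and 3633 in DMSO (log2FC -0.34 ± 0.069). IQGAP1, a scaffold that binds actin and the GTPases CDC42 and RAC1, had 7961, 8764 and 6149 in RSV and 11600.1, 11510.0 and 11321 in DMSO (log2FC -0.61 ± 0.115). PAK1, a kinase that those GTPases activate, had 344, 370.1 and 301 in RSV and 565, 493 and 543 in DMSO (log2FC -0.66 ± 0.099). PAK1 and SSH1 had the fewest reads of the 34 genes.

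The treated libraries held to 1 order across nearly all of the genes. RSV B had the highest treated value in 32 of the 32 lower genes, and RSV C the lowest in 31, so that the order from B through A to C held in 31 genes and was broken by FSCN1 alone. RSV B had the highest treated value in 37.1% of all 14979 mRNAs and in 61.8% of the 2659 called lower, and the whole order held in 28.6% and 53.4%. FLNC and SSH1 ran the other way, highest in RSV C and lowest in RSV B, as did 44.2% of the 2489 mRNAs called higher. RSV C had the lowest treated value in 42.5% of all mRNAs and in 73.7% of those called lower, and it had the highest in 65.8% of those called higher. The median log2 of RSV C over the mean of RSV A and B was -0.38 for the 32 genes, -0.01 for all mRNAs and -0.20 for those called lower. Summed over the 34 genes, RSV A, B and C held 360205.0, 398700 and 278848 normalized reads, against 512288, 534921 and 516026 in DMSO A, B and C, or 2.0%, 2.17% and 1.61% of all recovered reads against 2.56%, 2.61% and 2.56%. Genes of 1 library share its depth and scaling, so these are not independent readings.

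The spread between treated libraries was wide for genes of this level. The median standard deviation of log2 normalized reads was 0.206 over the RSV libraries and 0.040 over the DMSO libraries for the 34 genes, against 0.088 and 0.049 for the 4024 mRNAs whose mean reached 1000 normalized reads. For the 1206 of those mRNAs called lower, the RSV value was 0.112. The log2 standard deviation was larger in RSV than in DMSO in 33 of the 34 genes, FSCN1 being the exception. The same count was not made over all mRNAs, and the median was larger in RSV for the 4024 mRNAs too. Without RSV C the median log2FC of the 34 genes was -0.45, and the direction held in each. Across the 32 lower genes, those with a larger difference between DMSO and RSV A and B also had a larger gap between RSV C and the other treated libraries, with a Spearman correlation of 0.73 across genes that share libraries and RSV A and B values.

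**Figure D2:**
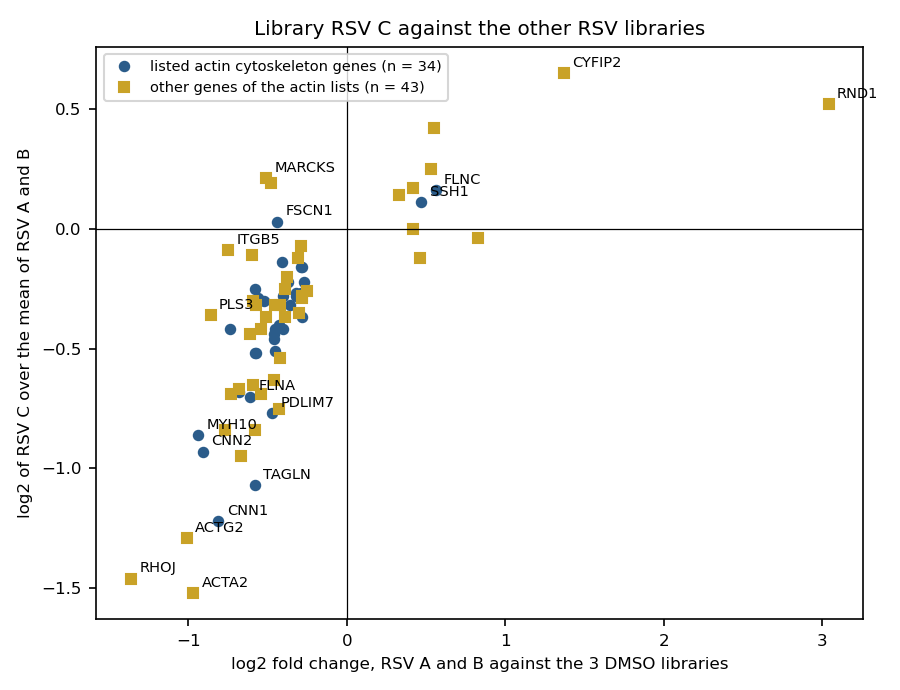
Each point is 1 gene, with the log2FC of RSV A and B against the 3 DMSO libraries on the x axis and the log2 of RSV C over the mean of RSV A and B on the y axis. Blue circles are the 34 actin cytoskeleton genes and yellow squares the 43 other named genes of the actin lists. CNN1, TAGLN, CNN2 and MYH10 lie lowest among the circles, FSCN1 lies just above 0, and ACTA2, RHOJ and ACTG2 lie lowest among the squares.

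Scaling mattered for the size of the differences. With libraries scaled to the sum of recovered reads in place of the authors' size factors, the median log2FC of all mRNAs moved to 0.18, the calls went from 2489 higher and 2659 lower to 5052 higher and 1395 lower, and the median of the 34 genes moved to -0.39. The shift was upward and nearly the same in every gene, so the lower genes nearest 0 changed most in proportion. The log2FC of 14 genes came out smaller by 1.5 times or more, down to -0.15 for EZR. FLNC rose from 0.61 to 0.79 and SSH1 from 0.51 to 0.69. All 34 kept their sign, the 32 lower genes still did not overlap with DMSO, and the test called 30 of them lower, without TPM1 (log2FC -0.20) and TAGLN2 (-0.23). When a library was left out, CNN1 and TAGLN lost the call without RSV A and without DMSO A, B or C, and PDLIM7 and TAGLN2 lost it without DMSO A, B or C. TPM1 lost it without DMSO A, and ACTN1 without DMSO B.

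**Figure D3:**
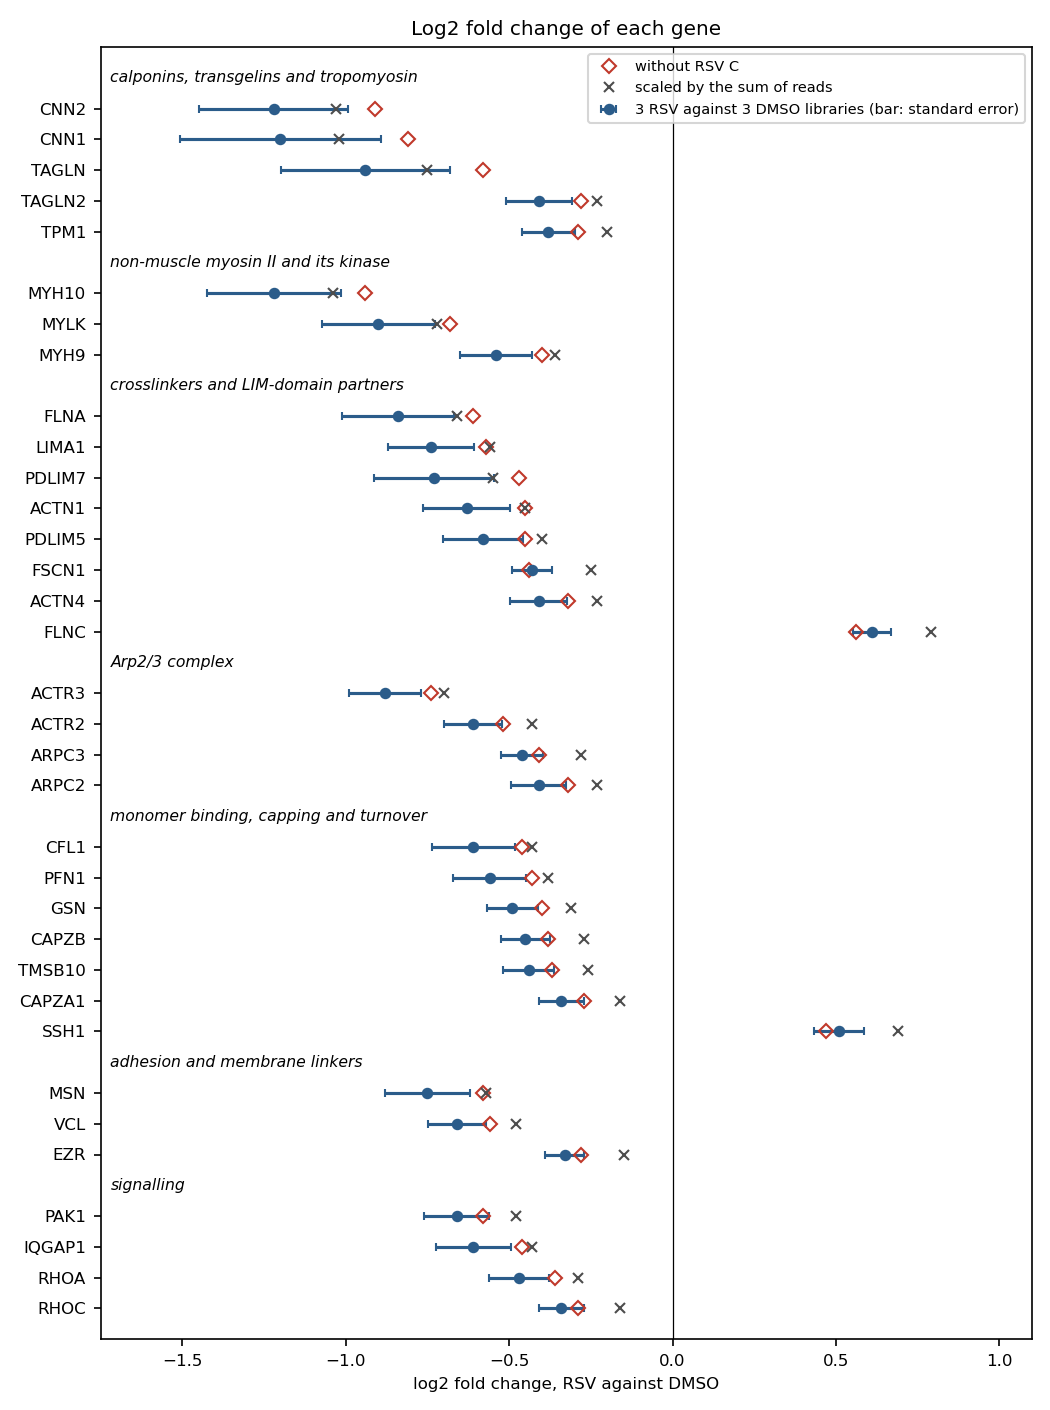
Log2FC of the 34 genes, RSV against DMSO (x axis), 1 gene per line, grouped by role (y axis). Blue circles with bars give the estimate from all 6 libraries with its standard error, red diamonds the estimate without RSV C, and grey crosses the estimate with libraries scaled to the sum of reads. Each of the 32 lower genes stays left of 0 under all 3 estimates, and FLNC and SSH1 stay right of it.

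Lists of further actin genes hold 43 more genes with a name, of 181 genes in all lists together, the 34 included. As the names again come from the authors' DE genes, their counts are a description too. Of the 43, 34 were lower and 9 higher in RSV, beside 1021 lower of all 1824 other named mRNAs tested. The limma voom test called each of the 43 in its direction, which the choice of the genes had already fixed. Over all 14979 mRNAs it called 17.8% lower and 16.6% higher. Lower were 2 of 2 actin isoforms, 2 of 4 genes of the Arp2/3 complex and its activators, 4 of 5 genes of turnover, 7 of 9 crosslinkers and side binders, 3 of 3 genes around myosin II, 7 of 9 of focal adhesions, and SRF. RSV C had the lowest treated value in 32 of the 34 lower genes, MARCKS and ARHGAP28 being the exceptions. Under the other scaling all 43 kept their sign, and the log2FC of 12 came out smaller by over 1.5 times, among them MARCKS (-0.26), DSTN (-0.35) and SRF (-0.33).

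The actin isoforms of smooth muscle had log2FC values below those of all 34 genes, with standard errors that overlap those of CNN1, CNN2 and MYH10. ACTA2 (ENSBTAG00000014614), the smooth muscle alpha-actin that myoblasts and myofibroblasts also make, had 343340.4, 456908 and 139892 normalized reads in RSV A, B and C and 738549, 821186 and 763059.9 in DMSO, a log2FC of -1.47 ± 0.361, or -0.97 without RSV C. It took 1.91%, 2.49% and 0.81% of recovered reads in RSV A, B and C and 3.7% to 4.01% in DMSO. ACTG2, the gamma-actin of smooth muscle, had 3253, 4452 and 1574 in RSV and 7234, 7980.4 and 7742 in DMSO (log2FC -1.43 ± 0.309). Their proteins are near-identical, and whether ACTG2 holds reads of ACTA2 was not tested.

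Other subunits and regulators were mostly lower, with some exceptions. ARPC1B and ARPC4 of the Arp2/3 complex were lower, with a log2FC of -0.67 ± 0.163 and -0.56 ± 0.107, while ACTR3B, a close copy of ACTR3, was higher (517, 459 and 579.6 in RSV and 354, 314 and 345 in DMSO, log2FC 0.61 ± 0.108). CYFIP2, part of the WAVE complex that activates Arp2/3, was higher as well (178, 124 and 236 against 68.5, 47.9 and 56.4, log2FC 1.59 ± 0.310). The pair ACTR3 and ACTR3B thus differed in opposite directions, and so did MARCKS (-0.44 ± 0.066) and MARCKSL1 (0.69 ± 0.129), related proteins that bind actin at the membrane. Reads of ACTR3 and ACTR3B, and of MYL12A and its near-identical copy MYL12B, may not have been told apart by the authors' counting. Among turnover genes, CAP1 (-0.76 ± 0.118) and DSTN (-0.53 ± 0.089), which free and sever actin, were lower, and TESK1 (0.47 ± 0.073), a kinase that inactivates cofilin, was higher. PLS3 (plastin-3), a bundler, had 3757, 4189 and 3091 in RSV and 7079, 7263 and 7299 in DMSO (log2FC -0.98 ± 0.100), and its RSV mean was 51.0% of the DMSO mean. PDLIM3, a scaffold of the muscle Z-disc, was higher (1832, 1802 and 1763 against 1162, 937 and 979, log2FC 0.81 ± 0.081), unlike PDLIM4 (-0.67 ± 0.107), PDLIM5 and PDLIM7. MYL12A, a regulatory light chain of non-muscle myosin, and PPP1R12A, the subunit that targets the phosphatase to myosin, were lower with a log2FC of -0.60 ± 0.141 and -0.69 ± 0.095.

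At the membrane, the integrins ITGB1 (-0.63 ± 0.104), ITGAV (-0.64 ± 0.050), ITGB5 (-0.78 ± 0.053) and ITGA11 (-0.96 ± 0.167) were lower and ITGA1 (0.42 ± 0.056) was higher. ITGAV and ITGB5, which pair as a receptor, did so with treated libraries close together: ITGB5 had 5399, 5469 and 5099 in RSV and 8829.5, 9479 and 9144 in DMSO, and ITGAV had 7606, 7634 and 7078 and 11518, 11664 and 11511. The wide gap between RSV C and the other treated libraries was thus not a feature of every lower gene. Among signalling genes, RHOJ, a relative of CDC42, had 119.5, 152 and 49.3 in RSV and 318, 378 and 345 in DMSO (log2FC -1.83 ± 0.310), and RND1, another signalling gene, had 30.3, 33.2 and 45.5 in RSV and 4.2, 1.0 and 7.9 in DMSO. Few reads stand behind the control values of RND1, so its log2FC of 3.21 ± 0.548 is imprecise. SRF, the transcription factor known to bind the promoters of many actin genes, had 1291, 1520.1 and 1086 in RSV and 1755, 1877 and 1863 in DMSO (log2FC -0.51 ± 0.110).

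**Figure D4:**
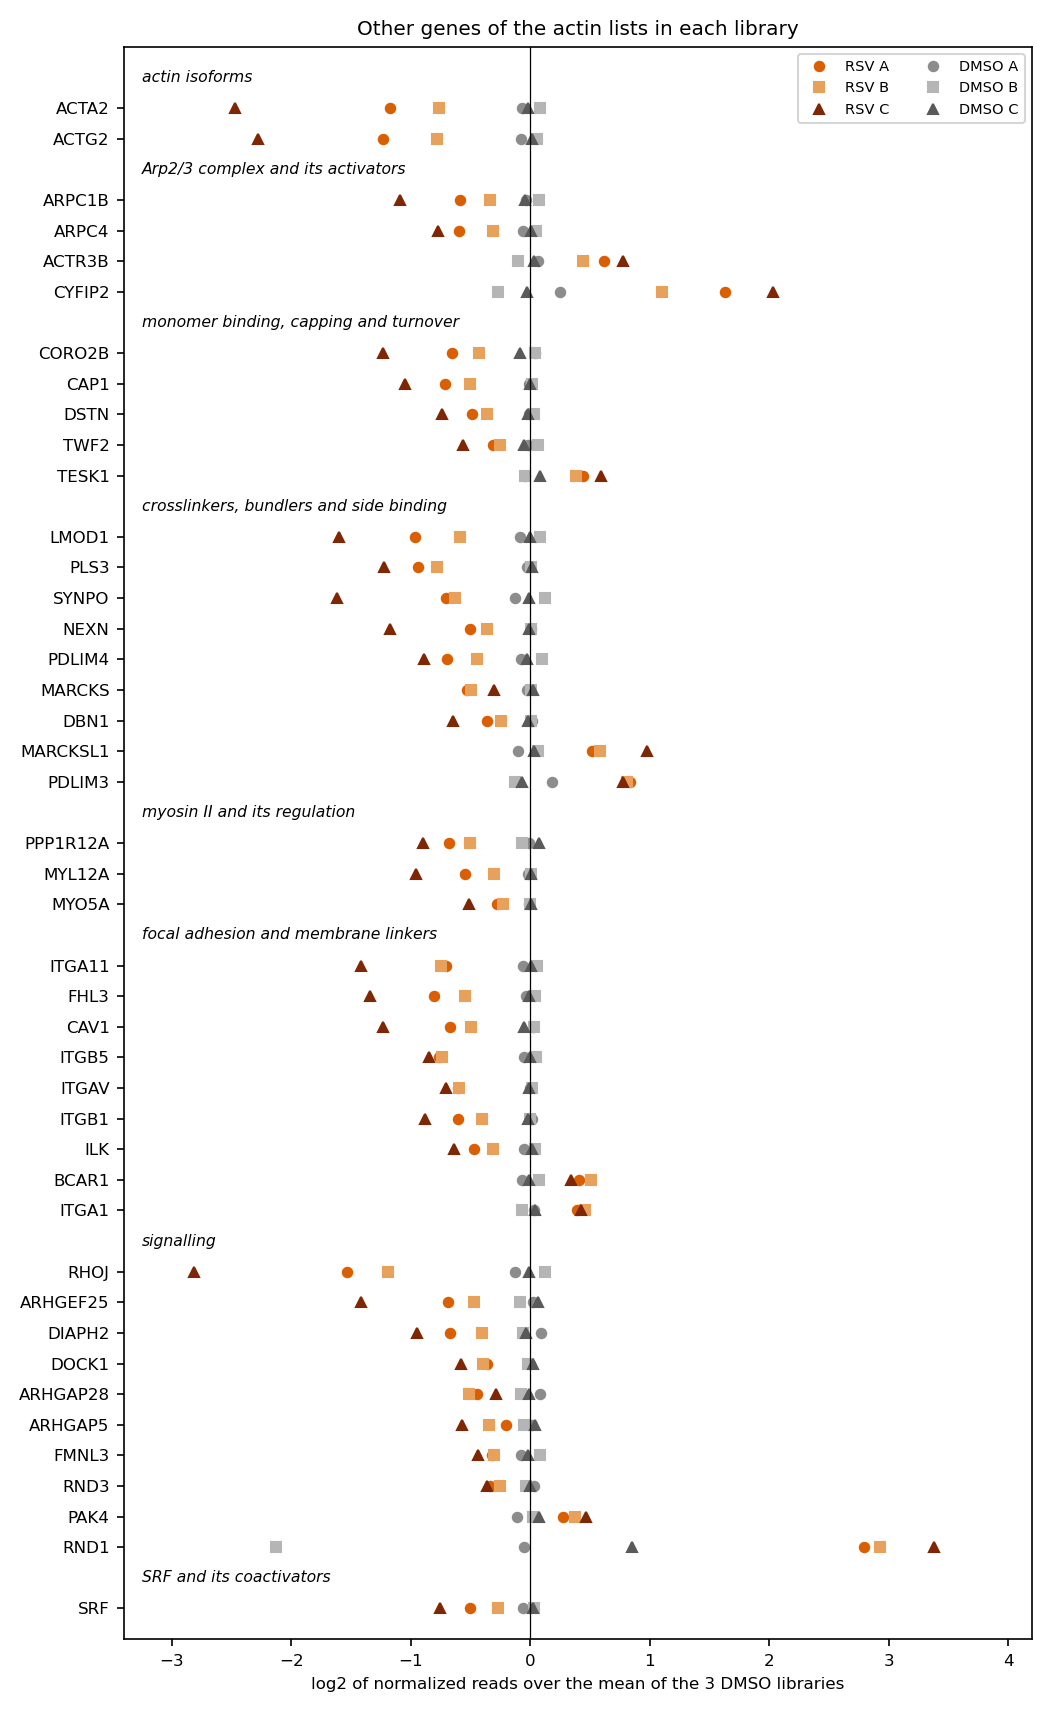
Normalized reads of the 43 other named genes of the actin lists in each of the 6 libraries, as log2 of the value over the mean of the 3 DMSO libraries (x axis), 1 gene per line, grouped by list (y axis). Symbols are as in the plot of the 34 genes by library. RHOJ, ACTA2 and ACTG2 reach farthest left, in RSV C, and RND1 farthest right, with its DMSO libraries far apart.

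Markers of the cell types that such cultures can hold were looked up as well. A name again means that the authors had called the gene DE. Of the 1824 named mRNAs tested beyond the 34 genes, 1021 were lower. Of 5 smooth muscle markers, the 4 with a name (ACTA2, CNN1, TAGLN and LMOD1) were lower in RSV, and their sum was 155518 to 493794 normalized reads in RSV and 787012 to 873078 in DMSO. CNN1 and TAGLN are themselves among the 34 genes, and MYH11 was not analysed here. Of 6 fibroblast markers, the 4 with a name (LUM, DCN, COL3A1 and PDGFRA) were lower, with sums of 307234 to 375986 in RSV and 507982 to 519361 in DMSO. LUM and COL3A1 were lowest in RSV C among the treated libraries. DCN was level across RSV A, B and C (22614, 22532 and 22628), and PDGFRA was highest in RSV C (6734, 6697 and 7277). Of 7 myogenic markers only MYMK (myomaker), which drives fusion, has a name, and it was higher, at 1630 to 1998 normalized reads in RSV and 1084 to 1114 in DMSO. The label of the cells could not be checked against MYOD1, MYF5, MYOG, DES, PAX7 and CKM, which were not analysed here, and none of the 3 endothelial, 3 macrophage and 3 adipocyte markers has a name. The part of these cell types in the differences of the actin genes was not tested.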

How the data were processed

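Libraries of 6 samples (3 RSV, 3 DMSO, grouped by the treatment in their labels) were sequenced on an Illumina platform, with paired reads of more than 1 length for mRNA and no statement of which library had which. The authors removed low-quality reads, divided counts by size factors and deposited, per mRNA, the mean of these normalized counts in each group, with their log2 fold change and P-values. The miRNA reads were mapped with Bowtie 0.12.9 per the labels, and are not analysed here. The aligner, counter and annotation for mRNA are not given in the sources used here, so strand use is unknown.

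Decimal points of the deposited means were lost. They were restored with the digits of the authors' log2 fold change, which was used for nothing else. The authors' P-values entered no calculation here. Their calls decided which genes have a name, and the order of their P-values is given for TAGLN and TAGLN2 only. Each mean (15 digits) was written as a sum of whole reads over 3 size factors (RSV 1.0879, 1.0835 and 1.0541, DMSO 0.9637, 0.9596 and 0.8863). A combination was taken when fewer than 0.01 were to be met by chance. For 35 mRNAs of 20409 it was settled with relative expression values from the published sheets (within 0.1%). For 1221 mRNAs settled without the sheets, relative reads lay within 0.1% of them in both groups, which tied RSV A, B and C to samples RSV 3, 1 and 2 and DMSO A, B and C to DMSO 2, 1 and 3. Left out were 45 mRNAs not settled and 5 with no combination. More combinations are met by chance at higher means, so mRNAs with many reads are the likeliest to be left out. The sums of reads, and the percentages and scaling based on them, lack these mRNAs too.

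The recovered reads were fitted with limma voom (limma 3.58.1, R 4.3.3), both groups in 1 fit, no covariates, library sizes set by the size factors, a minimum mean of 10 normalized reads, and Benjamini-Hochberg adjustment at 0.05 over 14979 mRNAs. Other steps used Python 3.11.15, numpy 2.4.6, pandas 2.3.3, scipy 1.17.1 and matplotlib 3.10.9. The steps were tested on simulated data. The members, gene lists and marker lists were chosen with earlier results of these data known. Every listed gene with a name is accounted for, and others are named only from these lists. Alternatives were another scaling, adjustment, minimum mean, minimum fold change and pseudocount, the replicate number as a block, and each library left out in turn. The counts for 1 of the gene lists as a group are not reported here. Symbols came from the sheets, since the RefSeq gene table (ARS-UCD2.0) did not pair the Ensembl identifiers.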

Additional observations from a re-analysis of the deposited data

How the results depend on the processing

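The log2 fold change of each of the 34 genes was recomputed under 10 alternatives, and all 340 values kept their direction. Of these, 19 moved by more than the spread between libraries, all with libraries scaled to the sum of recovered reads. That scaling shifted every gene upward by nearly the same step, and the 19 had a spread below this step. The median of the 34 genes was then -0.39 in place of -0.57. The spread included the library left out, so leaving out 1 library could hardly count as a move. Without RSV C, TAGLN went from -0.94 to -0.58 and CNN1 from -1.20 to -0.81, and neither counted as moved. The median lay between -0.69 and -0.45 with 1 library left out. The count of mRNAs called higher and lower was 5052 and 1395 under that scaling, 619 and 713 with the Benjamini-Yekutieli adjustment, and 1330 and 1254 with a minimum log2 fold change of 0.5. With 1 library left out, between 1189 and 3222 mRNAs were called higher and between 1417 and 3156 lower, with 1250 and 1528 without DMSO A, 1320 and 1524 without DMSO B, and 1189 and 1417 without DMSO C. The counts rose without RSV B or RSV C, and the cause was not tested. Of the 34 genes, between 27 and 32 were called lower with 1 library left out. Sums of 17884357 to 19868085 recovered reads per library limit precision for the genes with the fewest reads. With the replicate number as a block, 2496 mRNAs were called higher and 2468 lower, 32 of the 34 genes were called lower, and the median of the genes was -0.57. Over 14979 mRNAs the deviations from the group means of same-numbered libraries correlated by 0.08 (number 1), 0.02 (number 2) and 0.00 (number 3). Not every library correlated best with its own number. Whether same-numbered samples share a culture or a batch is not given in the sources used here, and values this small cannot decide it.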
